A study of Mus musculus with 12 samples.

Results

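The genes described here are 33 genes of the extracellular matrix and of the fibroblasts that line the brain. They were chosen by gene symbol, with earlier results of these data known. They comprise 14 collagen chains, 8 matrix glycoproteins and proteins of matrix assembly, and 7 genes grouped as small leucine-rich repeat proteins, Islr among them. The rest are 2 insulin-like growth factor binding proteins and 2 genes used as markers of meningeal fibroblasts. All 33 were found in the platform annotation, through 43 probes, and all 43 passed the filter on dim probes, among 21643 genes and 39239 probes kept from 39429. RNA was measured on dual-colour microarrays, 1 array per mouse, in 4 CSS1, 4 CSS2 and 4 Bl6 mice at postnatal day 14. Bl6 is the inbred strain C57BL/6J. The names CSS1 and CSS2 were read as chromosome substitution strains of chromosome 1 and chromosome 2, in which that chromosome comes from another strain and the rest is Bl6. The labels state neither this nor the donor strain. The labels give hippocampus as the tissue, whereas the design text speaks of brains, and no mouse carries a treatment. Each mouse was hybridised against a common pool of Bl6 RNA, with the dyes swapped in 2 of the 4 mice of each strain, and values below are log2 of a mouse's signal over that of the pool, corrected for the dye effect of the fit.

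In the brain, fibrillar collagens, fibronectin and the small proteoglycans that coat collagen fibrils are made mostly by fibroblasts of the meninges and around larger vessels, while the collagen IV network forms the basement membrane under the endothelium and the pia. Neural tissue proper holds little fibrillar collagen. Some of the genes are not restricted to fibroblasts: Sparc, a secreted collagen-binding glycoprotein, is also made by astrocytes and endothelial cells, and Mgp, matrix Gla protein, by vascular smooth muscle, where it inhibits calcification. Igfbp2 and Igfbp5 bind the insulin-like growth factors and control their access to the receptor. In RNA from whole tissue, fewer cells of a type and less RNA per cell cannot be told apart.

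The median signal of the mouse's channel was 188 to 408 intensity units over the 12 arrays. The share of gene probes above background was 89.6% in CSS2 mouse 1, the lowest, and up to 99.9% in the others. Log ratios of arrays with the same dye orientation, here before the dye effect was removed, correlated between 0.168 and 0.7 across probes. All 33 genes were above background on all 12 arrays by their brightest probe, which stands for the gene below, and 2 dimmer probes, of Col6a2 and Col12a1, were above background on 9 and 11 arrays. The fixed lists of marker genes were also measured: 9 of 9 hippocampal neuron markers and 19 of 20 arachnoid and pial markers had a probe, all of them above background on 12 of 12 arrays. Since 89.6% to 99.9% of all gene probes were above background, passing this cut does not show which cells contributed RNA. The lists do not assign a gene to a cell type.

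Of the 33 genes, Mgp and Sparc were higher in CSS1 than in Bl6, Igfbp2 was lower, and Sparc was also higher in CSS2. The genes called are those with a limma p-value, adjusted by Benjamini-Hochberg over all 39239 probes, below 0.05. In CSS1 against Bl6, 3 of 33 genes were called, 2 higher and 1 lower, where 2.03% of all genes were called (1.17% higher and 0.859% lower). In CSS2 against Bl6, 1 of 33 was called, higher, where 1.04% of all genes were called and 0.661% were called higher. Between CSS1 and CSS2, 0 of 33 were called by limma and 7 had an unadjusted p below 0.05, where 0.97% and 8.5% of all genes did so. The comparisons with Bl6 share the same 4 Bl6 mice, so a gene that differs in both is not seen in separate controls.

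**Figure D1:**
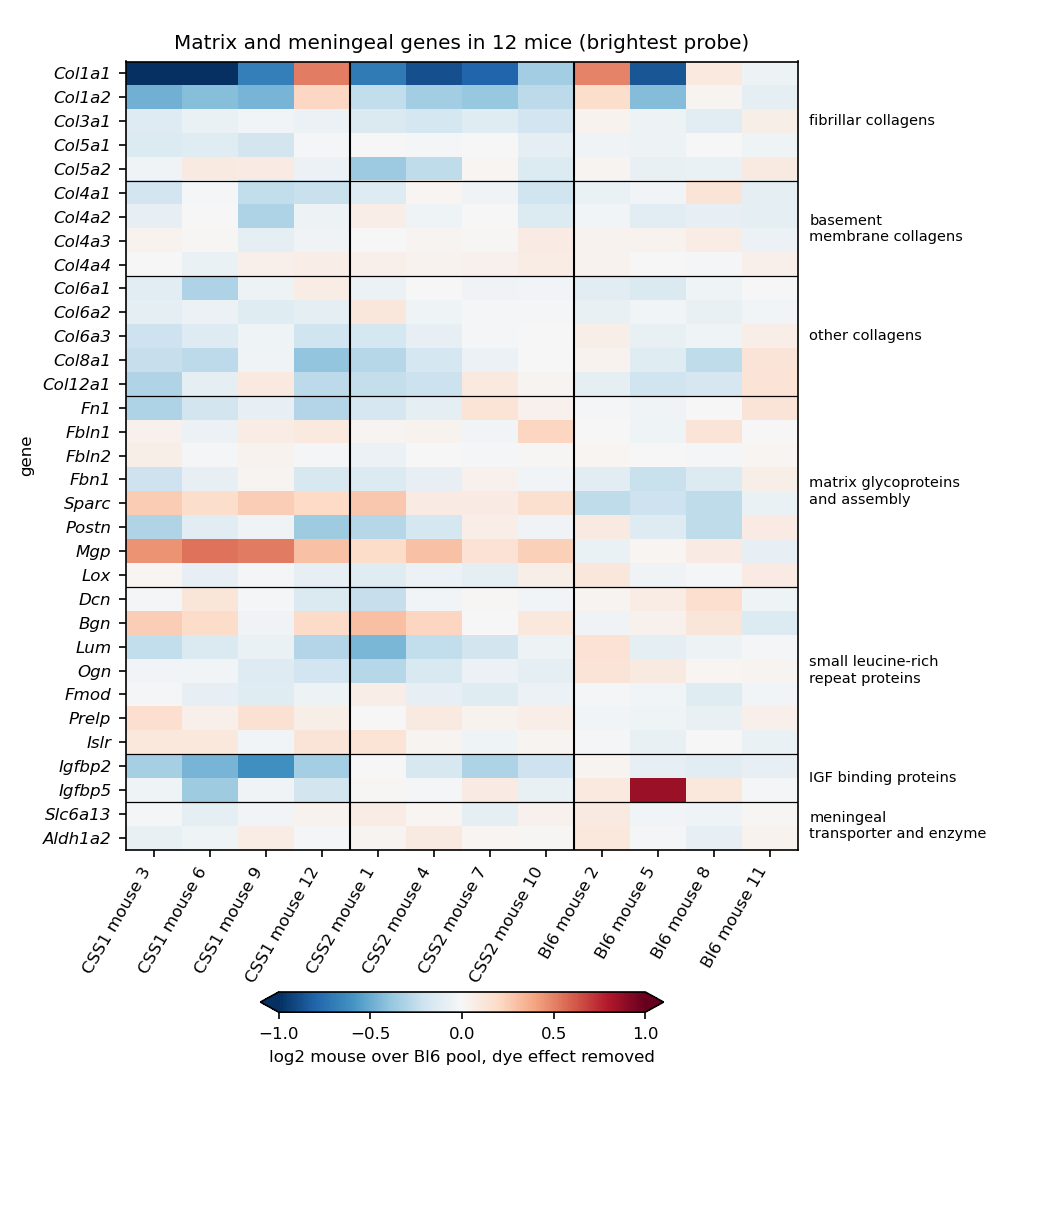
Log2 ratio of each mouse over the Bl6 pool for the 33 genes (rows, grouped by kind, brightest probe) in 4 CSS1, 4 CSS2 and 4 Bl6 mice (columns). Blue is below and red above the pool. Col1a1 differs most between mice of a strain, followed by Igfbp5 and Col1a2, Mgp and Sparc are red in all 8 CSS mice, and the dark red cell is Igfbp5 in Bl6 mouse 5.

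Mgp, a vitamin K-dependent protein of cartilage and vessel walls, had the highest difference of the 33 in CSS1. Its 4 CSS1 mice (3, 6, 9 and 12) stood at 0.45, 0.54, 0.52 and 0.30 over the pool, the 4 CSS2 mice (1, 4, 7 and 10) at 0.18, 0.29, 0.14 and 0.24, and the 4 Bl6 mice (2, 5, 8 and 11) at -0.07, 0.02, 0.08 and -0.08. The lowest CSS1 mouse was above the highest CSS2 mouse, and the lowest CSS2 mouse was above the highest Bl6 mouse. The difference of CSS1 from Bl6 was 0.46 ± 0.06 (SE, n = 4 each), a 1.38-fold rise (limma adjusted p = 0.00338). In CSS2 it was 0.23 ± 0.06 and missed the threshold (limma adjusted p = 0.143), as did CSS1 minus CSS2 at 0.24 ± 0.06 (limma adjusted p = 0.137). Without CSS1 mouse 12, CSS1 minus CSS2 was 0.29 and was called (limma adjusted p = 0.0259). The array holds 1 Mgp probe.

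Sparc alone among the 33 was called in both strains. Its brightest probe read 0.25, 0.18, 0.25 and 0.20 in CSS1, 0.27, 0.08, 0.08 and 0.16 in CSS2, and -0.25, -0.21, -0.25 and -0.07 in Bl6, mice in the same order. All 8 CSS mice lay above the 4 Bl6 mice, and the Bl6 mice lay below their own pool. The difference from Bl6 was 0.42 ± 0.05 (SE, n = 4 each) in CSS1, 1.33-fold (limma adjusted p = 0.00341), and 0.35 ± 0.05 in CSS2, 1.27-fold (limma adjusted p = 0.0109). CSS1 minus CSS2 was 0.07 ± 0.05. The 3 Sparc probes did not read alike. The second gave 0.28 in CSS1 and 0.27 in CSS2 without overlap with Bl6, missing the threshold (limma adjusted p = 0.0785 and 0.139), and the third gave 0.03 and 0.04. The mean over the 3 probes was 0.24 in CSS1 and 0.22 in CSS2, still called (limma adjusted p = 0.0141 and 0.0378). The call in CSS2 was lost without CSS2 mouse 10 (0.34, limma adjusted p = 0.0519) or Bl6 mouse 2 (0.32, limma adjusted p = 0.0537) and without the dye term (limma adjusted p = 0.126).

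Sparc lies on chromosome 11. The 250 bases before its start site in RefSeq, at chr11:55420081-55420330 on the minus strand of GRCm38.p6, are printed because the gene was called in both strains, neither of which is named for that chromosome. They were searched on both strands for CCAAT, for GGGCGG and for TATAAA, which are the core letters bound by the factor NF-Y, the Sp1 family and the TATA-binding protein. None of these was in the window, so it holds no capitals.
Sparc: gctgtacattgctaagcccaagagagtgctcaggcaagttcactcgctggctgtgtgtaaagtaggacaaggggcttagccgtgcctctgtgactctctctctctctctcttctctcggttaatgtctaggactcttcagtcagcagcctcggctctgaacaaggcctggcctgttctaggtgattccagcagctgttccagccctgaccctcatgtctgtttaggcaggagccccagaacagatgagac
Of the 33 genes, 24 had a promoter entry, with 30 windows in all. CCAAT was found in windows of 6 of these genes, GGGCGG of 11 and TATAAA of 3, in a table in which 33.8%, 32.7% and 12.4% of 32851 windows held them.

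Astrocyte and endothelial genes were set beside Sparc, since both cell types make it. Of 8 astrocyte genes, a list added after values had been seen, 1 was called higher in CSS1, the connexin gene Gjb6 at 0.63 (limma adjusted p = 0.00645), and 0 in CSS2. The list's median per mouse ran from -0.02 to 0.23 in CSS1, from -0.01 to 0.13 in CSS2 and from -0.08 to -0.03 in Bl6. Of 9 endothelial markers, 2 were called higher in CSS1, where 1.17% of all genes were called higher. They were Ly6c1, a surface antigen of brain endothelium, at 0.56 (limma adjusted p = 0.0276), and Slco1a4, an organic anion transporter of the blood-brain barrier, at 0.34 (limma adjusted p = 0.0099). The median over the endothelial list ran from -0.05 to 0.09 in CSS1, from 0.00234 to 0.05 in CSS2 and from -0.05 to 0.00775 in Bl6. All genes of both lists were above background on 12 of 12 arrays, as most gene probes of any kind were. Their part in the Sparc and Mgp results was not tested. The call of Slco1a4 was lost with median centring (limma adjusted p = 0.0574) and with scale normalization between arrays (0.24, limma adjusted p = 0.24). The call of Ly6c1 was lost in 9 of 24 alternatives, among them those without CSS1 mouse 3 or 6 or Bl6 mouse 2, 5 or 11 (limma adjusted p up to 0.144 over all alternatives).

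Igfbp2 was lower in CSS1. Its brightest probe read -0.33, -0.46, -0.61 and -0.34 in CSS1, -0.01, -0.16, -0.31 and -0.20 in CSS2, and 0.03, -0.08, -0.11 and -0.08 in Bl6. All CSS1 mice lay below all mice of the other strains, while CSS2 and Bl6 overlapped. The difference of CSS1 from Bl6 was -0.38 ± 0.07 (SE, n = 4 each), or 1.30-fold lower (limma adjusted p = 0.0268). In CSS2 it was -0.11 ± 0.07 (limma adjusted p = 0.763), and CSS1 minus CSS2 was -0.27 ± 0.07 (limma adjusted p = 0.191, but 0.0223 with a block of consecutive mice in place of the dye term). The second probe gave -0.30 in CSS1, again without overlap, but missed the threshold (limma adjusted p = 0.2). The call in CSS1 was lost in 10 of 24 alternatives, among them leaving out CSS1 mouse 6 or 9 or Bl6 mouse 2, 5 or 11, with differences between -0.42 and -0.29 over all alternatives and an adjusted p up to 0.208.

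**Figure D2:**
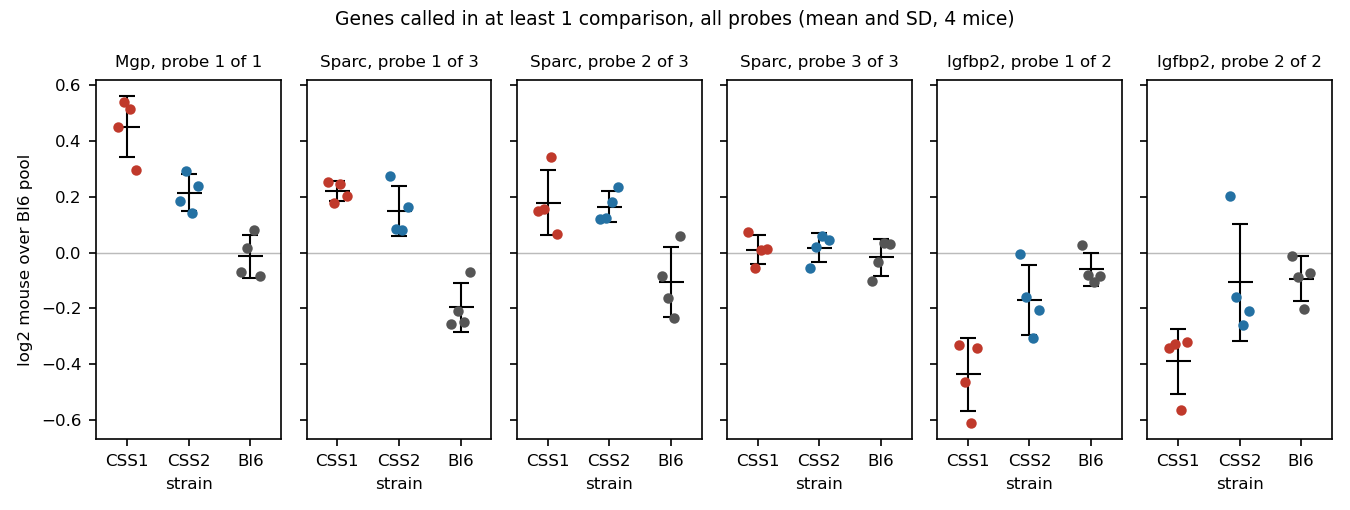
Log2 ratio over the Bl6 pool of each mouse (points) for every probe of Mgp, Sparc and Igfbp2, with the mean and SD of 4 mice per strain. CSS1, CSS2 and Bl6 run from left to right, and the third Sparc probe is flat while the first separates both CSS strains from Bl6.

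Igfbp2 lies on chromosome 1, next to Igfbp5 among the protein-coding genes of the RefSeq table, and 10 of the 33 genes are on that chromosome. Of the 2 start sites that RefSeq lists for Igfbp2, the 250 bases before the upstream one, at chr1:72824230-72824479 on the plus strand of GRCm38.p6, are printed because they belong to the only called gene of the 33 on chromosome 1. The capitals mark 3 copies of GGGCGG, and no CCAAT or TATAAA was found on either strand. The sequence is that of the Bl6 reference, and the chromosome 1 that CSS1 is named for was not sequenced here.
Igfbp2: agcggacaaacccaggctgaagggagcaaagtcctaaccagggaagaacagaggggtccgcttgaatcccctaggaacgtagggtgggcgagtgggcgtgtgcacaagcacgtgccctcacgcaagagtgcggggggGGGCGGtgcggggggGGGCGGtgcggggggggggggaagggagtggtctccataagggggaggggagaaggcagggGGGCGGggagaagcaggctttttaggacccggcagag

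Igfbp5, the neighbour of Igfbp2, was not called. It read -0.05, -0.36, -0.04 and -0.18 in CSS1, 0.01, -0.02, 0.08 and -0.07 in CSS2, and 0.10, 0.86, 0.11 and -0.02 in Bl6. The value of Bl6 mouse 5 stands apart from the other 11 mice. The difference from Bl6 was -0.42 ± 0.16 (SE, n = 4 each) in CSS1 (limma adjusted p = 0.325) and -0.26 ± 0.16 in CSS2 (limma adjusted p = 0.723), and without Bl6 mouse 5 these were -0.19 and -0.04. Of the rest of the insulin-like growth factor axis, a list of 17 genes of ligands, receptors and binding proteins, 1 was called in CSS1 and 0 in CSS2. Over all genes, 2.03% and 1.04% were called. The gene called in CSS1 was Igfbp6, a binding protein with a preference for insulin-like growth factor II, at 0.33 (limma adjusted p = 0.0138, lost in 5 of 24 alternatives, among them those without CSS1 mouse 3 or Bl6 mouse 2).

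The 10 genes on chromosome 1 are Col3a1, Col5a2, Col4a3, Col4a4, Col6a3, Fn1, Igfbp2, Igfbp5, Fmod and Prelp. In CSS1 against Bl6, 1 of these 10 was called, where 7.89% of all genes on chromosome 1 were called. An unadjusted p below 0.05 was reached by 5 of the 10, where 21.5% of chromosome 1 genes reached it, and CSS1 and Bl6 did not overlap for 4 of the 10, where 16.5% of chromosome 1 genes did not. The 10 had a median difference of -0.05, with 8 of 10 negative, and the 23 genes elsewhere had a median of -0.04, with 17 of 23 negative. Between CSS1 and CSS2, 0 of the 10 were called by limma, where 5.94% of chromosome 1 genes were called, and 4 had an unadjusted p below 0.05, where 17.5% did. In CSS2 against Bl6, 0 of the 10 were called by limma, where 0.934% of chromosome 1 genes were called, and 2 had an unadjusted p below 0.05, where 10.3% did. Neither of the 2 genes on chromosome 2, Col5a1 and Fbn1, was called in CSS2, with differences of 0.01 and 0.05. For any gene named in this report on chromosome 1 or 2, a sequence difference between strains under a probe could also change its signal. Probe sequences were not at hand, so this was not tested.

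The fibrillar collagens form the cables of connective tissue, and Col1a1 and Col1a2 encode the chains of type I collagen. Of the 5 fibrillar chains measured, 0 were called by limma in any comparison. Col1a1 read -1.04, -1.01, -0.69 and 0.51 in CSS1, -0.71, -0.88, -0.79 and -0.35 in CSS2, and 0.50, -0.86, 0.10 and -0.05 in Bl6. High and low mice occurred in CSS1 and in Bl6, and all 4 CSS2 mice were below the pool. The difference from Bl6 was -0.48 ± 0.35 (SE, n = 4 each) in CSS1 (limma adjusted p = 0.742) and -0.60 ± 0.35 in CSS2 (limma adjusted p = 0.693), in absolute size the largest of the 33 in each comparison with Bl6. Single mice moved both values by a large part. In CSS1 the difference was -0.88 without CSS1 mouse 12 (limma adjusted p = 0.136), -0.30 without CSS1 mouse 3, -0.31 without CSS1 mouse 6, -0.26 without Bl6 mouse 2 and -0.77 without Bl6 mouse 5. In CSS2 it was -0.39 without Bl6 mouse 2 and -0.89 without Bl6 mouse 5, and array weights gave -0.31 in CSS1 and -0.32 in CSS2.

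**Figure D3:**
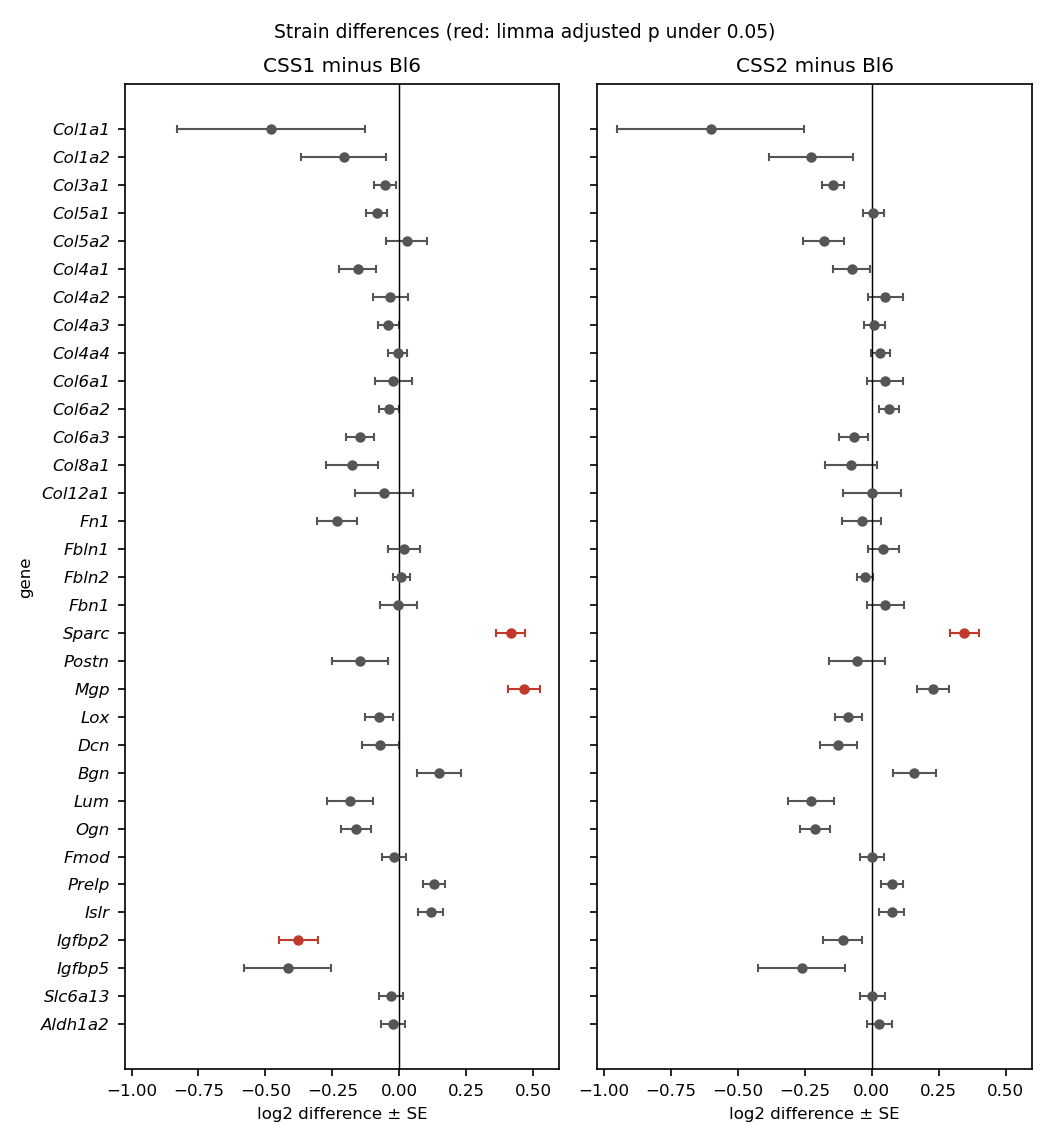
Difference of CSS1 (left) and CSS2 (right) from Bl6 for the 33 genes, on the log2 scale with its SE (bars), from 4 mice per strain. Genes called at an adjusted p below 0.05 are red: Mgp, Sparc and Igfbp2 in CSS1 and Sparc in CSS2. Col1a1 has the widest bars.

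Col1a2 followed Col1a1 mouse by mouse. It read -0.48, -0.42, -0.46 and 0.21 in CSS1, -0.24, -0.35, -0.38 and -0.26 in CSS2, and 0.18, -0.43, 0.03 and -0.10 in Bl6. Over the 12 mice, which share 1 reference pool, Pearson's r between the 2 genes was 0.968 and Spearman's rho 0.846. The r was 0.963 after strain means were removed and 0.918 without the 2 mice farthest from the median of Col1a2. These values are a description, since the pair was singled out after its values were seen. The SD between mice of a strain was 0.551 for Col1a1, at percentile 99.7 of all genes, 0.253 for Igfbp5 and 0.247 for Col1a2, while the median SD was 0.086 over the 33 genes and 0.0674 over all genes.

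The 250 bases before the start of Col1a2 in RefSeq, at chr6:4505368-4505617 on the plus strand of GRCm38.p6, are shown for this pair. Capitals mark 2 copies of GGGCGG and 1 CCAAT, and TATAAA was not found on either strand.
Col1a2: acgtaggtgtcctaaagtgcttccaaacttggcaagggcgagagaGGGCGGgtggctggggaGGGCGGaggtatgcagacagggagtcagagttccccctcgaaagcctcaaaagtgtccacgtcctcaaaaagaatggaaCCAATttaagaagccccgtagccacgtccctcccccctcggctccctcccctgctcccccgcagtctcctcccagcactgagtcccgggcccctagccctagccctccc

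Other genes were ranked by the correlation of their values with the mean of Col1a1 and Col1a2 over the 12 mice. Of 6305 genes with an SD over 0.1 across the mice, 2 had an r above 0.9, or 0.0317%: Acp5, the tartrate-resistant acid phosphatase of osteoclasts, at 0.953 (rho 0.811), and Bglap, the bone matrix protein osteocalcin, at 0.939 (rho 0.853). Acp5 read -0.51, -0.58, -0.40 and 0.29 in CSS1, -0.58, -0.35, -0.46 and -0.11 in CSS2, and 0.38, -0.49, 0.15 and -0.18 in Bl6. CSS1 mouse 12 and Bl6 mouse 2 were the highest for Acp5 and for both collagen chains. Without the 2 mice farthest from the median, r was 0.884 for Acp5 and 0.885 for Bglap, and after strain means were removed it was 0.942 and 0.932. In all, 5 genes had an r above 0.8. Next in rank were Ywhag at 0.825, Nsg2 at 0.81 and Tmem131l at 0.803, none of them on the list of bone-cell genes described below. Without the same 2 mice, their r was 0.615, 0.552 and 0.497.

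**Figure D4:**
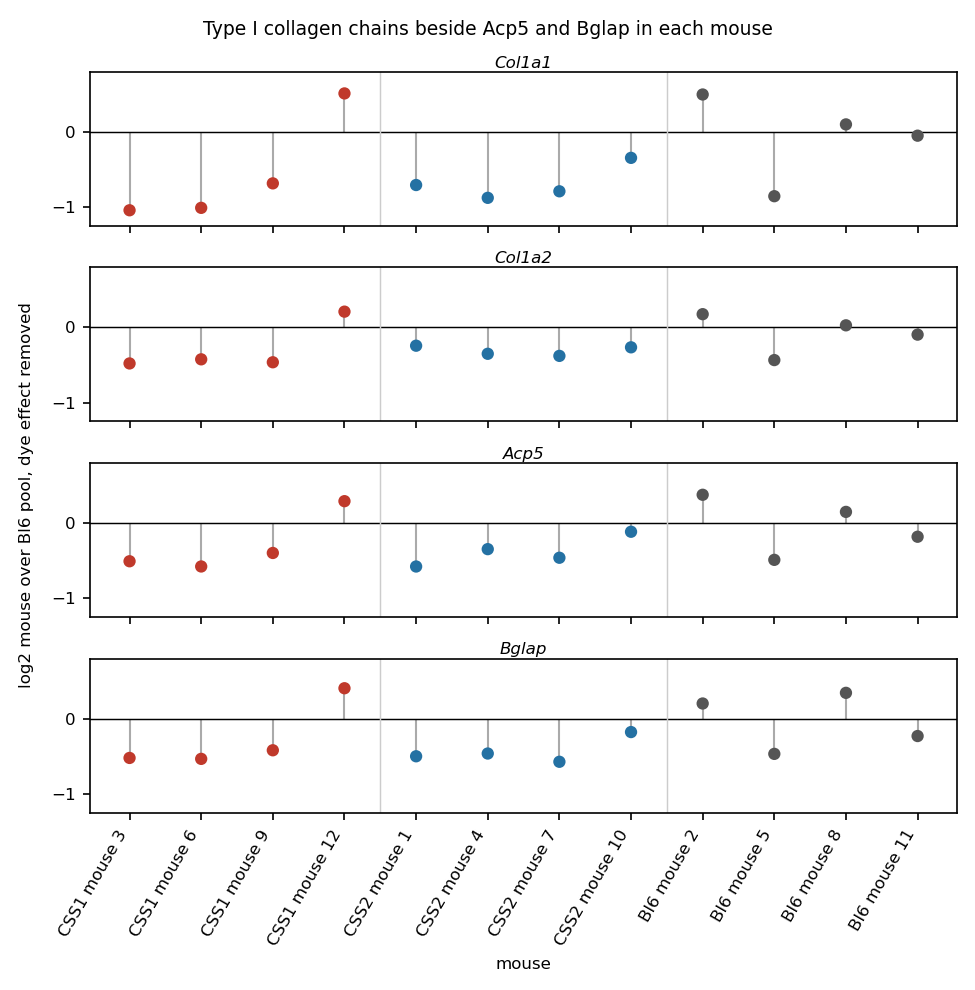
Log2 ratio over the Bl6 pool in each of the 12 mice for Col1a1, Col1a2, Acp5 and Bglap (panels from top to bottom, same scale). In all 4 panels CSS1 mouse 12 and Bl6 mice 2 and 8 are above the pool and Bl6 mouse 5 is below it.

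A list of 17 genes of bone cells, added after these values had been seen, was measured in full and above background on 12 of 12 arrays. Most gene probes of any kind passed that cut, so it does not show that bone cells were present. Besides Acp5 and Bglap, the collagenase gene Mmp13 had an r of 0.898 with the collagen mean. The other 14, among them the osteoblast factors Sp7 and Runx2, ran from -0.338 to 0.585. The median over the bone list per mouse lay between -0.04 and 0.02 in CSS1, between -0.04 and -0.01 in CSS2, and between -0.05 and 0.00961 in Bl6. Both Acp5 probes showed the pattern, at 0.29 and 0.23 in CSS1 mouse 12. Bglap has near-identical neighbouring genes, so its probes may also read these, and the dimmest of its 4 probes read 0.03 in that mouse against 0.13 to 0.46 for the other 3. Of 8 bone marrow neutrophil genes, also added after seeing the data, 5 were above background on all arrays and 0 were called by limma. Their median was -0.09, -0.08, -0.02 and 0.05 in CSS1, -0.05, -0.09, -0.08 and -0.10 in CSS2, and -0.03, -0.05, 0.03 and -0.04 in Bl6. It was highest in CSS1 mouse 12 and below the pool in Bl6 mouse 2, the other mouse with high collagen values. The part of bone-cell or bone marrow RNA in the type I collagen values was not tested.

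The other fibrillar chains moved less. Col3a1, which forms fibrils with type I collagen in soft tissue, differed by -0.05 in CSS1 and by -0.14 in CSS2, where CSS2 and Bl6 did not overlap. Col5a2, a chain of the type V collagen that seeds fibrils, differed by 0.03 and -0.18. It read -0.03, 0.09, 0.08 and -0.06 in CSS1, -0.36, -0.25, 0.02 and -0.14 in CSS2, and 0.03, -0.07, -0.07 and 0.09 in Bl6. CSS2 mice 1 and 4 were the lowest and CSS1 and CSS2 overlapped, and the CSS1 minus CSS2 difference of 0.21 ± 0.08 was not called (limma adjusted p = 0.429). Col5a1, the partner chain, differed by -0.08 and 0.01. Col3a1 and Col5a2 are neighbours on chromosome 1.

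The basement membrane chains Col4a1, Col4a2, Col4a3 and Col4a4 were not called. Their differences ran from -0.16 to -0.01 in CSS1 and from -0.07 to 0.05 in CSS2, and 0 of 4 passed limma's threshold in either, with 1 (Col4a1 in CSS1) at an unadjusted p below 0.05. All 3 Col4a4 probes stayed within 0.03 of 0 in CSS1. Col4a1 and Col4a2, which form the common network of all basement membranes, are a neighbouring pair on chromosome 8, and Col4a3 and Col4a4, known from the kidney glomerulus, on chromosome 1. Of 18 laminins and other basement membrane genes measured, 0 were called by limma in any of the 3 comparisons, with median differences of -0.04 in CSS1 and -0.02 in CSS2.

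Among the remaining collagens, Col6a1, Col6a2 and Col6a3 build the beaded filaments of type VI, Col8a1 is a short-chain collagen of vessels and Col12a1 sits on fibril surfaces. None of these 5 was called by limma. Their CSS1 differences were all negative, from -0.18 for Col8a1 to -0.02 for Col6a1, with Col6a3 at an unadjusted p below 0.05. In CSS2 they ran from -0.08 to 0.06.

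Of the 8 matrix glycoproteins and assembly genes, only Mgp and Sparc were called. Fn1, fibronectin, read -0.31, -0.18, -0.08 and -0.30 in CSS1, -0.17, -0.10, 0.13 and 0.04 in CSS2, and -0.02, -0.04, -0.01 and 0.13 in Bl6. All CSS1 mice lay below all Bl6 mice. The difference of -0.23 ± 0.07 (SE, n = 4 each) missed the threshold (limma adjusted p = 0.186) and passed it with array weights, at -0.26 (limma adjusted p = 0.037). Postn, periostin, differed by -0.15 in CSS1 and -0.05 in CSS2, and Lox, which cross-links collagen and elastin, by -0.08 and -0.09. Fbln1, Fbln2 and Fbn1, fibulins and the microfibril protein fibrillin, stayed within 0.06 of 0 in both strains by their brightest probes.

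Small leucine-rich repeat proteins such as decorin, lumican and fibromodulin bind collagen and regulate fibril width. Islr was placed with them for its leucine-rich repeats only. Of the 7 genes of this class, 0 were called by limma in any comparison. Lum, lumican, read -0.24, -0.15, -0.07 and -0.29 in CSS1, -0.45, -0.25, -0.18 and -0.05 in CSS2, and 0.15, -0.10, -0.05 and -0.01 in Bl6. The strains overlapped in both comparisons, and the CSS2 difference was -0.23 ± 0.09 (SE, n = 4 each, limma adjusted p = 0.388), or -0.15 without CSS2 mouse 1. Ogn, mimecan, differed by -0.16 in CSS1 and -0.21 in CSS2. All 8 CSS mice lay below the 4 Bl6 mice, and both differences missed the threshold (limma adjusted p = 0.252 and 0.149). Prelp, a heparan sulfate-binding member, differed by 0.13 in CSS1 without overlap (limma adjusted p = 0.181). Dcn, decorin, differed by -0.07 and -0.12, Bgn, biglycan, by 0.15 and 0.16, Islr by 0.12 and 0.07, and Fmod, fibromodulin, by -0.02 and 0.00067.

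The genes most closely tied to meningeal fibroblasts, the transporter Slc6a13 for GABA and taurine and the retinoic acid-synthesising enzyme Aldh1a2, were not called. Slc6a13 read -0.02, -0.09, -0.02 and 0.04 in CSS1, 0.08, 0.02, -0.09 and 0.04 in CSS2, and 0.09, -0.03, -0.05 and 0.01 in Bl6. Aldh1a2 differed by -0.02 in CSS1 and 0.03 in CSS2, and both genes overlapped between all strains. Of 19 arachnoid and pial markers measured, 0 were called by limma in any of the 3 comparisons, with median differences of -0.03 in CSS1 and 0.01 in CSS2. Of 10 choroid plexus and 9 mural cell markers, 0 were called by limma. The median over the arachnoid and pial list per mouse ran from -0.05 to 0.08 in CSS1, from -0.03 to 0.05 in CSS2 and from -0.01 to 0.06 in Bl6, and the 3 strains overlapped.

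Read over all 33 genes, differences in CSS1 leaned below 0: 25 were negative and 8 positive, with a median of -0.04, where the median over all genes was -0.00172. Strains did not overlap for 7 of the 33 genes (21.2%), 3 higher and 4 lower, where 8.63% of all genes did not overlap (4.49% higher and 4.14% lower). An unadjusted p below 0.05 was reached by 10 of 33 (30.3%), where 12.8% of all genes reached it. Of the 10 genes on chromosome 1, 5 reached it (50%), where 21.5% of all chromosome 1 genes did. Of these 10, 1 lay higher and 3 lower without overlap (40%), where 16.5% of all chromosome 1 genes did not overlap. Of the 23 genes elsewhere, 5 reached it (21.7%), and 2 lay higher and 1 lower without overlap (13%). In CSS2, 16 were negative and 17 positive, 4 of 33 did not overlap, 2 higher and 2 lower (12.1%, where all genes gave 7.18%, with 4.16% higher and 3.01% lower), and 6 had an unadjusted p below 0.05 (18.2%, where all genes gave 9.83%). Between CSS1 and CSS2, 3 of 33 did not overlap (9.09%, where all genes gave 6.07%). These counts describe a list that was chosen by name with earlier results of these data known, so they carry no test. Per mouse, the median over the 33 genes was between -0.08 and -0.04 in CSS1, between -0.06 and -0.00867 in CSS2, and between -0.05 and 0.03 in Bl6.

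The 33 genes did not vary as 1 block. Of the 528 pairs among the 33 genes, 40 had an r above 0.7 across mice after strain means were removed, 21 had an r below -0.7, and the median r was -0.00573. The share of such pairs among all genes was not computed, so these counts do not show a trait particular to the 33. Among the genes with the highest pairs, Fn1, Fbn1, Col12a1, Col6a3, Col8a1 and Postn, which were chosen after these values were seen, varied together. After strain means were removed, r ran from 0.75 to 0.966 over their 15 pairs. With strain means kept, it ran from 0.649 (Col6a3 and Fbn1) to 0.926 (Col12a1 and Fbn1). Leaving out the 2 mice farthest from the median of 1 gene of the pair, with strain means kept, gave 0.415 (Fbn1 and Fn1) to 0.871 (Col12a1 and Fbn1). Col5a2 was not placed in the group, though within strains its r with the 6 ran from 0.73 (Col8a1) to 0.918 (Fn1). With strain means kept, its r with them ran from 0.221 (Fn1) to 0.54 (Col12a1). The borders of the group thus depend on that choice. The mean of the 6 genes was -0.26, -0.14, -0.01 and -0.28 in CSS1, -0.21, -0.14, 0.04 and 0.00096 in CSS2, and -0.00683, -0.13, -0.14 and 0.10 in Bl6. Of 6303 other genes with an SD over 0.1 across the mice, 373 (5.92%) had an r above 0.9 with that mean after strain means were removed. The covariation is thus shared with many other genes. Bgn ran against this group, with an r of -0.924 with Col12a1 and -0.899 with Fn1 within strains.

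**Figure D5:**
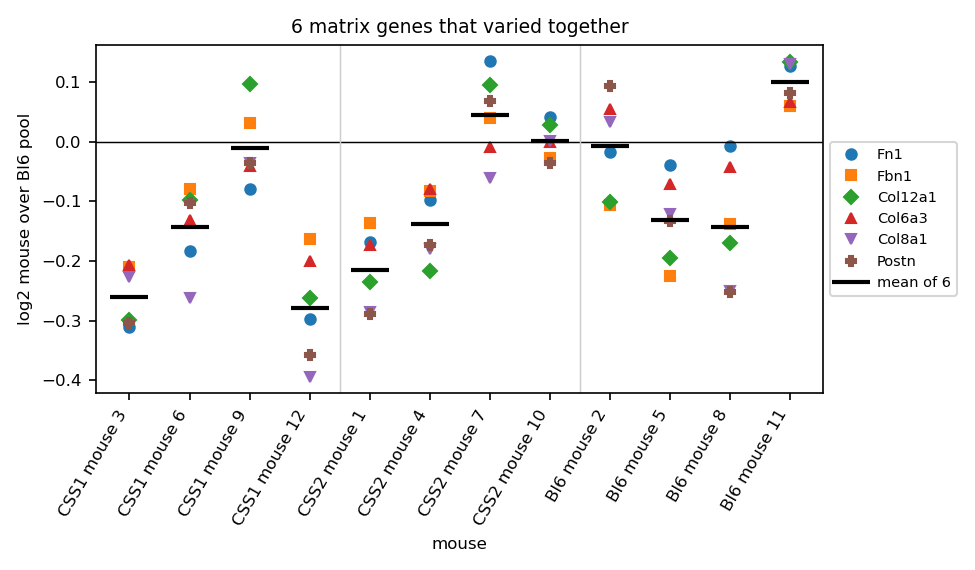
Log2 ratio over the Bl6 pool in each mouse for 6 matrix genes (symbols) and their mean (black bars). The mean is lowest in CSS1 mice 3 and 12, at -0.26 and -0.28, and highest in Bl6 mouse 11, at 0.10.

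The machinery around the matrix was compared through lists of genes that process, bind or degrade it, and each count below is over all members of its list that had a probe. Over all genes, 2.03% were called in CSS1, 1.04% in CSS2 and 0.97% in CSS1 against CSS2. Of 27 genes of collagen processing and cross-linking, 1 was called, Adamts14, a protease that trims the ends of procollagen, at -0.26 in CSS1 (limma adjusted p = 0.0126, lost in 5 of 24 alternatives, among them those without Bl6 mouse 2 or 5 and the mean of its probes, at -0.13). Of 18 genes of TGF-beta signalling and latency, 0 were called by limma in any comparison. Of 20 proteases and inhibitors, Adamts4, an aggrecan-cleaving protease on chromosome 1, was at -0.47 in CSS1 by its brighter probe (limma adjusted p = 0.0268) and at -0.72 in CSS1 minus CSS2 (limma adjusted p = 0.00203). Its 2 probes disagreed: their mean gave 0.00750 in CSS1 and -0.30 in CSS1 minus CSS2, without a call. The call in CSS1 was lost in 11 of 24 alternatives, among them those without CSS1 mouse 3, 6 or 12 or Bl6 mouse 5, 8 or 11. The membrane-bound protease Mmp16 was at -0.27 in CSS2 (limma adjusted p = 0.0245), a call that was lost without any 1 CSS2 mouse, without Bl6 mouse 2, 5 or 11, with median centring and without the dye term.

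Of 25 matrix receptors, 1 was called in CSS1, 3 in CSS2 and 2 between CSS1 and CSS2, where 2.03%, 1.04% and 0.97% of all genes were called. Ddr2, a receptor tyrosine kinase for fibrillar collagen encoded on chromosome 1, was lower in CSS1 at -0.28 (limma adjusted p = 0.00677, lost with median centring, at 0.0841, and without the dye term, at 0.261). Its relative Ddr1 was higher in CSS2 at 0.51 (limma adjusted p = 0.0136, lost without CSS2 mouse 10 or Bl6 mouse 5 and without the dye term). Sdc4, a heparan sulfate proteoglycan of the cell surface encoded on chromosome 2, had the largest of these differences, at -0.68 in CSS2 (limma adjusted p = 0.00278) and 0.98 in CSS1 minus CSS2 (limma adjusted p = 9.66e-05). Itga6, a laminin receptor subunit on chromosome 2, was at -0.33 in CSS2 by its brightest probe (limma adjusted p = 0.0105), while the mean of its 3 probes gave 0.23, called in the opposite direction (limma adjusted p = 0.0243). In CSS1 minus CSS2 the brightest probe gave 0.28 (limma adjusted p = 0.0248, with a change of the call in 10 of 24 alternatives, among them those without CSS1 mouse 3, 9 or 12 or CSS2 mouse 1, 4 or 7) and the mean of the probes -0.43 (limma adjusted p = 0.000307). Of the hippocampal neuron markers, 1 of 9 was called, Lefty1 on chromosome 1, at -0.35 in CSS1 (limma adjusted p = 0.016, lost without CSS1 mouse 3 or 9 or Bl6 mouse 2 or 5, and at -0.53 with a smaller background offset) and at -0.43 in CSS1 minus CSS2 (limma adjusted p = 0.00498). Of 4 red blood cell genes measured of 7 listed, 0 were called by limma, and their median per mouse ran from 0.06 to 0.45 in CSS1, from -0.46 to 0.09 in CSS2 and from -0.09 to 0.15 in Bl6.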

How the data were processed

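Per the file headers, the authors deposited intensity values of every spot (mean signal and median background of both dyes, unsubtracted). A table of their own normalized log2 ratios was deposited too, made by an unstated method. Over the kept probes, it correlated at 0.493 to 0.824 on 12 of 12 arrays with the normalized sample over pool ratios made here from the scanner values.

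Background was corrected with normexp (offset 50) and arrays were normalized by loess in limma 3.58.1 under R 4.3.3. The array carries 45220 spots. Gene probes were kept above a mean log2 intensity of 6.23, the 95th percentile of 1580 spots of 3 control types at background level, which left out 190. The limma model held strain and dye orientation over the 12 arrays, with eBayes (residual degrees of freedom 8, prior 3.21), adjusted over the kept probes at 0.05. The precision is limited by 4 mice per strain. The brightest kept probe stands for a gene. The fit was checked on simulated data. Gene symbols came from the platform annotation, chromosomes and promoters from RefSeq tables of GRCm38.p6, since no source used here gives the array's build.

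The genes, lists and alternatives were chosen with earlier results of these data known. The genes named are all 33, with full values for those called by any probe and the 3 largest other differences per comparison, and of each list at most 3 called genes per comparison. Lists of bone, bone marrow neutrophil and astrocyte genes were added after seeing the data. The alternatives changed background correction, normalization, dye term, array weights, probe filter and choice, samples in the fit and starting values, and left out each mouse.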

Additional observations from a re-analysis of the deposited data

Results flagged for a closer look

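Of 99 groups of 4 mice (33 genes in 3 strains), 4 held a mouse whose distance to its nearest neighbour filled a larger part of the group's range than Dixon's 95% critical value, where chance alone gives about 1 in 20 groups, or 5%. Col1a2 in CSS1 mouse 12 was at 0.21, while the other CSS1 mice lay between -0.478 and -0.424, and Col1a1, Acp5 and Bglap were also highest of CSS1 in that mouse. Igfbp5 in Bl6 mouse 5 was at 0.865, with the other Bl6 mice between -0.0225 and 0.108. Islr in CSS1 mouse 9 was at -0.0306, with the others between 0.108 and 0.128. Fmod in Bl6 mouse 8 was at -0.121, with the others between -0.0255 and -0.0186, a small distance on the log2 scale. No cause was tested for any of the 4.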

How the results depend on the processing

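Over 24 alternatives, the rises of Mgp (0.40 to 0.52) and Sparc (0.24 to 0.46) in CSS1 were called in 24 of 24. Igfbp2 in CSS1 lost the call in 10 of 24 and Sparc in CSS2 in 3 of 24. In CSS1 against Bl6, 5 of the 33 genes were called with array weights, which added Fn1 and Prelp to the 3, and 2 or 3 were called with a mouse left out. In CSS2 against Bl6, 0 were called without the dye term and 0 or 1 with a mouse left out (0 without CSS2 mouse 10 or Bl6 mouse 2). In CSS1 against CSS2, 1 was called, Igfbp2, with a block of consecutive mice in place of the dye term (-0.27, limma adjusted p = 0.0223), and 0 or 1 with a mouse left out (Mgp, without CSS1 mouse 12). The cause of these changes was not tested. When a gene's probes were averaged, Adamts4 in CSS1 was at 0.00750, and Itga6 was at 0.23 in CSS2 and -0.43 in CSS1 minus CSS2, against the direction of the brightest probe in each. Of 16 calls of genes on the other lists, 8 held with each of the 12 mice left out and 4 under all alternatives. The count over all genes moved from 439 to 117 with median centring and 1046 with array weights and 147 without the dye term in CSS1, from 225 to 119 with median centring, 385 with array weights and 92 without the dye term in CSS2, and from 210 to 96 with median centring and 113 without the dye term in CSS1 against CSS2. Using only the 8 arrays compared gave 237 in CSS1 and 132 in CSS1 against CSS2. Leaving out a mouse gave 158 to 537, 108 to 228 and 139 to 211. The labels pair no mice, since no strain shares a mouse number with another. The block of consecutive mice, 3 numbers with 1 mouse of each strain, is a grouping by number that no label gives, and it changed the call of Igfbp2 in CSS1 against CSS2 and of no other gene named here. The number of mice, 4 per strain, limits the precision, and 2 dimmer probes of Col6a2 and Col12a1 were not above background on all arrays.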
